A study of Mus musculus with 360 samples.

Results

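Ccl2, Ccl7 and Il6 are 3 of the 2759 genes measured by the 3154 probes of the deposited mouse table, and each was read by 1 probe. They were chosen by symbol, across 5 tissues and 2 isomers of dichlorobenzene, with earlier results of these data known. Which measured values led to the choice is not recorded, so each call below describes where a gene stood and is set beside the share of all probes called in the same comparison. Nothing further is read from those counts.

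The study exposed female B6D2F1/Crl (BDF-1) mice, a hybrid laboratory cross, aged 9 weeks, to 1,2-dichlorobenzene (1,2-DCB) or 1,4-dichlorobenzene (1,4-DCB). The groups were 1, 10, 30, 100 and 250 ppm of 1,2-DCB and 1, 10, 50, 150 and 400 ppm of 1,4-DCB, each with its own 0 ppm animals. Ovary, kidney, left liver lobe, heart and lung were taken on study day 5 from the same animals, and RNA was read with TempO-Seq, in which pairs of detector oligonucleotides are ligated on the target RNA, amplified and counted. The labels name no other treatment or genotype.

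Of 360 libraries, 326 were labelled as used in the analysis and are used here, with 2 to 10 animals a group. Library totals ranged from 4341679 to 46480385 counts, and the median library held between 5926930 counts in ovary and 20075258 counts in lung. The liver markers Apoa1, Ttr and Cyp2e1, over all used libraries, summed to at least 72840 CPM, counts scaled to a common library size, in liver and at most 3438 CPM in any other tissue. The cardiac troponin Tnnt2 was at 35542 CPM or more in heart and at most 832 CPM elsewhere. Ovary markers, with 4 of 6 on the panel, summed to at least 3178 CPM in ovary and at most 40.2 CPM elsewhere. None of the 4 kidney or 4 lung markers was analysed here, so those labels were not checked. Libraries of 3 animals were picked as standing apart for the members after their values were seen. They were 1,2-DCB animal 506R at 250 ppm, 1,4-DCB animal 505 at 400 ppm and the kidney of 1,4-DCB control animal 2. Values without their libraries are given beside the called changes and in kidney. The outlier test given at the end did not flag animal 506R and flagged further animals, among them 1,2-DCB control animal 4 for heart Ccl7. In whole tissue, fewer cells of a type and less RNA per cell cannot be told apart.

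Ccl2 and Ccl7 encode CC chemokines, secreted proteins that draw monocytes out of the blood into tissue, and both act on the receptor Ccr2. Il6 encodes interleukin-6, a cytokine that signals through Jak kinases and Stat3 and drives the acute phase response of hepatocytes. All of them are textbook early products of tissue injury and are induced through NF-kB and AP-1 in macrophages, fibroblasts, endothelium and epithelium.

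The chemokines are neighbours. In GENCODE M21 on the GRCm38 build, Ccl2 lies at chr11:82035571-82037453 and Ccl7 at chr11:82045712-82047525, both on the plus strand, with 8258 bases between them. Their start codons open reading frames of close likeness, shown here because it bears on whether 2 probes could read 1 RNA. The first 60 coding bases are given 5′ to 3′, with capitals where the pair is identical, at 43 of 60 positions:
Ccl2: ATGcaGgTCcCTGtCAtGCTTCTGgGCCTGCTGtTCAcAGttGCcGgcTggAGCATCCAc
Ccl7: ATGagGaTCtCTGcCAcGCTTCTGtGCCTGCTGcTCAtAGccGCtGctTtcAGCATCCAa
The longest run of bases shared by the Ccl2 and Ccl7 transcripts was 23. Probe sequences were not used here, so cross-reading between the pair was not tested. The nearby Ccl12, also a Ccr2 ligand in mouse, shared at most 17 bases in a row with Ccl2.

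Il6 lies at chr5:30013114-30019981 on the plus strand of GRCm38. Its promoter is shown because NF-kB and AP-1 are the textbook inducers of the gene. The 250 bases before its start site, chr5:30012864-30013113 on the plus strand (RefSeq, GRCm38.p6), carry an AP-1 match (TGANTCA, read on both strands) and an NF-kB match in capitals:
Il6: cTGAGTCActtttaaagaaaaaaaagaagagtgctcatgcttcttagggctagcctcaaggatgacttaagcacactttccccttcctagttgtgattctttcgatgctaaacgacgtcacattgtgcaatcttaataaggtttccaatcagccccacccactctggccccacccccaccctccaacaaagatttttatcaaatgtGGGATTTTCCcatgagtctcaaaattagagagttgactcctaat
The NF-kB match lay at -44 to -35 and the AP-1 match at -249 to -243, and the matches did not overlap. Of 32851 promoters of that length, 7.25% held the NF-kB motif and 6.75% held TGANTCA on either strand. The cyclic AMP element TGACGTCA, held by 1.55% of promoters, and the Stat site TTCCNGGAA, held by 0.913%, had no match in this window. Of the 3 genes, only Il6 was matched in the promoter table.

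In unexposed animals the chemokines were highest in heart, ovary and lung. Over the 0 ppm animals of both series, Ccl2 averaged 34.9 ± 10.4 CPM in heart (SD, n = 20), 33.4 ± 13.6 CPM in ovary (n = 20), 18.9 ± 5.78 CPM in lung (n = 20), 19.4 ± 27.4 CPM in kidney (n = 11) and 7.98 ± 2.92 CPM in liver (n = 16). Heart and ovary did not differ beyond their spread, and the kidney mean rested on 1 library at 102 CPM, with a median of 11.8 CPM. Ccl7 followed a like order, with 21.8 ± 13.3 CPM in ovary, 19.8 ± 13.8 CPM in heart, 11.6 ± 4.34 CPM in lung, 5.38 ± 12.9 CPM in kidney and 1.22 ± 0.821 CPM in liver. The kidney median of Ccl7 was 1.45 CPM, so kidney and liver were close, and ovary and heart overlapped.

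Il6 was sparse. Its mean was 3.24 ± 3.66 CPM in ovary, 2.90 ± 1.04 CPM in lung, 0.747 ± 0.511 CPM in heart, 0.451 ± 0.260 CPM in liver and 0.879 ± 2.42 CPM in kidney, where the median was 0.0889 CPM. Counts of Il6 in 0 ppm animals were at least 18 in lung, but ran only from 1 to 22 in heart and 1 to 24 in liver, and reached 0 in kidney. Ovary and lung did not differ beyond their spread, nor did heart and liver. CPM here is by probe, on the effective library size, and levels are compared within a gene only.

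**Figure D1:**
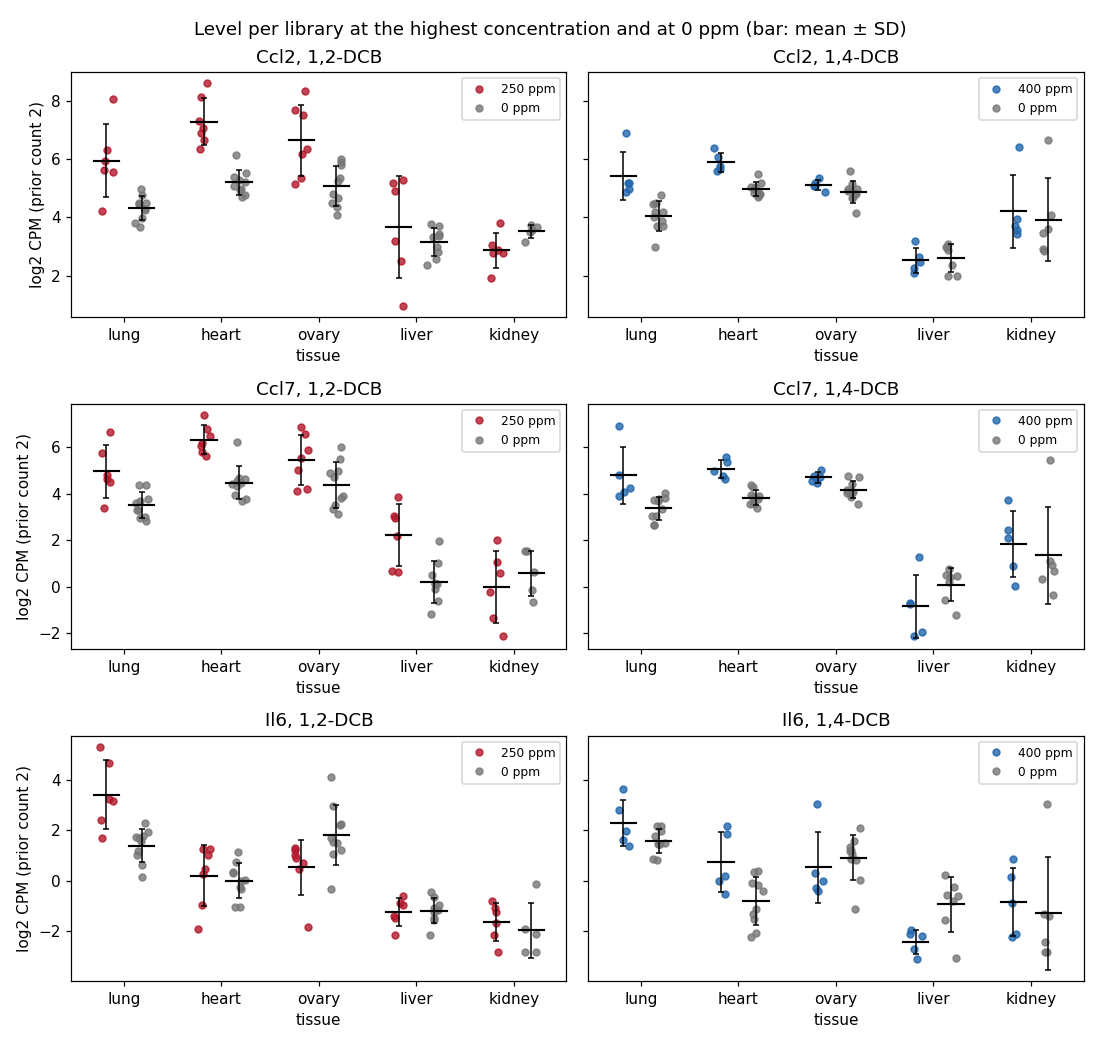
Level of each gene in every used library (log2 CPM, prior count 2) at the highest concentration, left in each pair, and at 0 ppm, right, by tissue and compound. Points are animals, bars are means ± SD. In heart, all 7 libraries at 250 ppm of 1,2-DCB lay above all 0 ppm libraries for Ccl2.

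At the highest concentrations, 15 of 30 changes passed the test, and 8 of the 10 chemokine changes did so at 250 ppm of 1,2-DCB, against 4 of 10 at 400 ppm of 1,4-DCB. The highest concentrations of the isomers differ, so those counts are not compared. Over all probes, the shares called higher at 250 ppm were 4.07% in heart, 17.6% in lung, 8.22% in ovary, 25.1% in liver and 6.78% in kidney. At 400 ppm they were 8.84% in heart, 1.6% in lung, 0.369% in ovary, 18% in liver and 0.623% in kidney. Tests are edgeR's quasi-likelihood test, two-sided, with Benjamini-Hochberg adjustment over all probes tested in a tissue, and a change is called at an adjusted p under 0.05. A log2 change is the exposed group minus the 0 ppm animals of its own compound, with its standard error (SE).

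In heart, Ccl2 rose at 250 ppm of 1,2-DCB, to between 81.7 and 390.1 CPM (median 134.9, n = 7), against 25.9 to 70.9 CPM (median 35.5, n = 10) at 0 ppm. All 7 exposed animals stood above all 10 controls. The change was 2.24 ± 0.20 on the log2 scale, 4.72-fold, with an edgeR adjusted p of 5.00e-13. Ccl7 ran from 49.8 to 168 CPM (median 71.998) at 250 ppm and from 12.8 to 74.8 CPM (median 21.7) at 0 ppm. The groups overlapped through 1 control, animal 4, at 74.8 CPM. Ccl7 rose by 1.78 ± 0.25 (log2, edgeR adjusted p = 2.46e-07), and 4.07% of the 2454 probes tested in heart were called higher in this comparison. Without animal 506R the changes were 1.93 for Ccl2 and 1.54 for Ccl7, both still called.

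At 400 ppm of 1,4-DCB the heart chemokines rose as well. Ccl2 was at 48.1, 50.9, 83.3, 66.6 and 54.4 CPM at 400 ppm, against 25.6 to 45.1 CPM (median 30.2, n = 10) at 0 ppm. Ccl7 was at 24.9, 27.1, 48.0, 40.9 and 31.3 CPM at 400 ppm, against 10.3 to 20.9 CPM (median 13.9) at 0 ppm. For both genes all 5 exposed animals lay above all 10 controls. The log2 changes were 0.94 ± 0.22 for Ccl2 (edgeR adjusted p = 0.00331) and 1.26 ± 0.27 for Ccl7 (edgeR adjusted p = 0.00122), where 8.84% of probes were called higher. Without animal 505 they were 0.97 and 1.29, both still called.

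Markers of several cell types moved in the same hearts, where 8.84% of all probes were called higher and 4.12% lower. Of 4 fibroblast probes, 2 rose at 400 ppm, Col1a1 by 0.68 and Lum by 0.56, and the sum of the 4 ran from 731 to 1651 CPM (median 933), against 562 to 861 CPM (median 695) at 0 ppm. Krt19, the only mesothelium marker tested there, rose by 1.54, at 2.11 to 20.6 CPM, against 2.05 to 4.24 CPM at 0 ppm. Of 7 macrophage probes 1 rose, Cd68 by 0.38, and their sums overlapped, at 753 to 1392 CPM at 400 ppm and 861 to 1165 CPM at 0 ppm. Of 3 neutrophil probes 1 fell, Lcn2 by 1.14 on the log2 scale, and no lymphocyte probe was called. Markers of other organs also rose, the liver enzyme Cyp2e1 by 3.07, with liver markers summing to 14.7 to 76.3 CPM against 0 to 14.6 CPM at 0 ppm, and the steroidogenic Star, on the ovary list, by 1.18. The part of these markers in the chemokine values was not tested.

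In lung, the chemokines rose at 250 ppm of 1,2-DCB. Ccl2 ran from 18.8 to 264.5 CPM (median 54.8, n = 6), against 12.8 to 31.04 CPM (median 20.6, n = 10) at 0 ppm. Ccl7 ran from 10.5 to 101 CPM (median 26.4), against 7.00 to 21.002 CPM (median 10.98) at 0 ppm. For each, 5 of 6 exposed animals stood above all controls, and the exception was animal 504. Ccl2 rose by 2.07 ± 0.31 (log2, edgeR adjusted p = 1.66e-07) and Ccl7 by 1.71 ± 0.36 (edgeR adjusted p = 1.30e-04), with 17.6% of the 2756 lung probes called higher. Without animal 506R, the highest, the changes were 1.3 for Ccl2 and 1.18 for Ccl7, and both were still called.

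At 400 ppm of 1,4-DCB in lung, Ccl2 was at 29.03, 36.5, 36.5, 31.8 and 118.5 CPM, against 7.86 to 27.3 CPM (median 17.2, n = 10) at 0 ppm. All 5 exposed animals stood above all controls, animal 505 far above the rest. Ccl7 was at 14.8, 19.1, 27.7, 16.9 and 121.7 CPM at 400 ppm, against 6.20 to 16.4 CPM (median 11.5) at 0 ppm, with 4 of 5 above all controls. Ccl2 rose by 1.55 ± 0.32 (log2, edgeR adjusted p = 0.00121) and Ccl7 by 1.88 ± 0.38 (edgeR adjusted p = 6.55e-04), with 1.6% of probes called higher. Both calls were lost when only the lung library of animal 505 was left out. The changes were then 0.95 for Ccl2 (edgeR adjusted p = 0.148) and 0.85 for Ccl7 (edgeR adjusted p = 0.300). In the fit that also left out the lung library of 1,2-DCB animal 506R, Ccl2 was still called and Ccl7 was not.

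In ovary, Ccl2 ran from 35.4 to 324 CPM (median 80.9, n = 7) at 250 ppm of 1,2-DCB, against 16.7 to 64.2 CPM (median 32.9, n = 10) at 0 ppm. The groups overlapped, with 5 of 7 exposed animals above all controls. Ccl2 rose by 1.86 ± 0.33 (log2, edgeR adjusted p = 1.30e-04). Ccl7 ran from 17.03 to 118.2 CPM (median 46.02) at 250 ppm and from 8.46 to 63.9 CPM (median 20.4) at 0 ppm, with 2 of 7 exposed animals above all controls. Its change of 1.10 ± 0.38 passed at an edgeR adjusted p of 0.0364, with 8.22% of the 2713 ovary probes called higher. Without animal 506R the changes were 1.96 for Ccl2 and 1.14 for Ccl7, both still called. The Ccl7 call did not hold when 8 of the 17 libraries were left out in turn, nor with only the 1,2-DCB animals in the fit (edgeR adjusted p = 0.109).

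No member was called in ovary at 400 ppm of 1,4-DCB, where 0.479% of probes were. Ccl2 was at 40.8, 33.5, 29.02, 35.9 and 33.8 CPM, against 17.4 to 48.3 CPM (median 29.1, n = 10) at 0 ppm, a log2 change of 0.21 ± 0.37. Ccl7 was at 26.3, 22.98, 21.6, 32.4 and 27.03 CPM, against 11.5 to 26.8 CPM (median 16.7), a log2 change of 0.51 ± 0.42. Both groups overlapped, with 2 of 5 animals above all controls for Ccl7 and 0 of 5 for Ccl2.

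In liver the 250 ppm animals of 1,2-DCB spread widely. Ccl2 was at 39.2, 36.5 and 30.2 CPM in animals 503, 508 and 507, and at 9.06, 5.66 and 1.86 CPM in animals 505, 501 and 506R, against 5.05 to 13.5 CPM (median 10.0, n = 9) at 0 ppm. Of these, 3 of 6 stood above all controls and 1 of 6 below all of them. Ccl7 was at 14.4, 7.63 and 8.24 CPM in animals 503, 508 and 507, and at 4.43, 1.51 and 1.47 CPM in animals 505, 501 and 506R, against 0.361 to 3.81 CPM (median 1.01) at 0 ppm. For Ccl7, 4 of 6 stood above all controls. Ccl2 rose by 1.14 ± 0.35 (log2, edgeR adjusted p = 0.00460) and Ccl7 by 2.23 ± 0.56 (edgeR adjusted p = 7.48e-04), where 25.1% of the 2601 liver probes were called higher. Without animal 506R, the lowest, they were 1.35 and 2.41, both still called.

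Summed cell markers spread in the same animals. The fibroblast markers Col1a1, Col1a2, Col3a1 and Lum, 4 of 7 on the list, summed to 344, 276 and 287 CPM in animals 503, 508 and 507 and to 98.1, 66.4 and 55.4 CPM in animals 505, 501 and 506R, against 48.9 to 76.5 CPM at 0 ppm. The macrophage and monocyte list, with 6 of 16 genes on the panel, summed to 1552, 1610 and 1318 CPM in animals 503, 508 and 507. In animals 505, 501 and 506R it summed to 840, 381 and 390 CPM. At 0 ppm it summed to 1954 CPM in control animal 4 and to 393 to 689 CPM in the other controls. Neutrophil sums did not follow that split. They were 1237.4, 1438.8 and 1263.5 CPM in animals 503, 508 and 507. In animals 505, 501 and 506R they were 1416.6, 567.8 and 619.7 CPM. At 0 ppm they were 2249.4 CPM in control animal 4 and 103.5 to 224.8 CPM in the other controls. All 4 fibroblast probes and 4 of 7 macrophage probes rose. Col1a1 rose by 2.52 and the macrophage marker Cd68 by 1.68 (log2, edgeR adjusted p = 1.76e-09 and 1.61e-10). Of 3 neutrophil probes 1 rose, Lcn2 by 1.58, and 0 fell, and the median change of the 3 was -0.94. Lcn2 is also counted among the acute phase genes below. All 4 endothelial probes fell, where 24.6% of all probes were called lower, and no lymphocyte probe was called. The pancreas marker Amy2a5 rose by 6.18 on the log2 scale, at 0.654 to 9.31 CPM, against 0 to 0.169 CPM at 0 ppm. Their part in the chemokine values was not tested.

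Liver Ccl2 at 400 ppm of 1,4-DCB was at 5.47, 6.17, 4.77, 9.16 and 4.19 CPM, against 3.89 to 8.47 CPM (median 7.31, n = 7) at 0 ppm. Ccl7 was at 0.534, 0.523, 0.171, 2.36 and 0.148 CPM, against 0.347 to 1.63 CPM (median 1.27). The groups overlapped for both, and the log2 changes of -0.085 ± 0.40 and -0.50 ± 0.66 were not called. Without animal 504, the highest for both, that of Ccl7 was -1.61, and its edgeR adjusted p ran from 0.0929 to 0.838 when 1 library was left out at a time.

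In kidney no member was called at either highest concentration. At 250 ppm of 1,2-DCB, Ccl2 ran from 3.67 to 13.97 CPM (median 6.98, n = 6), against 8.77 to 13.2 CPM (median 11.8, n = 5) at 0 ppm. Of the 6 exposed animals, 5 stood below all controls and 1 above them, but the log2 change of -0.58 ± 0.53 was not called (edgeR adjusted p = 0.562). Ccl7 ran from 0.0874 to 3.88 CPM (median 1.04) at 250 ppm and from 0.503 to 2.75 CPM (median 1.423) at 0 ppm, a log2 change of -0.30 ± 0.86 on counts of 1 to 35 and 4 to 36. Without animal 506R the changes were -0.83 for Ccl2 and -0.93 for Ccl7, neither called. In that comparison 11.7% of the 2729 kidney probes were called, 6.78% higher and 4.95% lower.

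In the 1,4-DCB kidneys 1 animal in each group was far from the others. At 400 ppm, Ccl2 was at 10.6, 15.4, 11.7, 12.98 and 85.1 CPM, the last in animal 505, against 16.8, 102, 7.39, 12.1, 7.01 and 10.9 CPM at 0 ppm, with the 102 in control animal 2. Ccl7 was at 0.887, 4.19, 5.26, 1.73 and 13.1 CPM at 400 ppm and at 2.02, 44.1, 1.11, 0.642, 1.75 and 1.45 CPM at 0 ppm, highest in the same animals. Control animal 2 also had neutrophil markers, 3 probes of which passed the filter, at a sum of 2433 CPM, against 28.2 to 85.1 CPM in the other controls, and fibroblast markers at 1630 CPM, against 230 to 334 CPM. Exposed animal 505 had a neutrophil sum of 579 CPM, against 27.4 to 59.5 CPM in the rest of its group, and a macrophage sum of 789 CPM, against 270 to 297 CPM.

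At 400 ppm, 1.03% of kidney probes were called. The log2 changes were 0.07 ± 0.51 for Ccl2 and -0.75 ± 0.79 for Ccl7. Without control animal 2 they were 1.32 and 1.84, and without exposed animal 505 they were -1.05 and -1.51, none called. The direction in kidney thus turned with 1 library. The part of the marker sums in these values was not tested.

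Il6, the cytokine, rose in lung at 250 ppm of 1,2-DCB. It ran from 3.14 to 39.8 CPM (median 9.10, n = 6; counts of 56 to 642), against 1.03 to 4.75 CPM (median 3.03, n = 10; counts of 18 to 74) at 0 ppm. Animals 506R and 501 were highest, at 39.8 and 25.3 CPM, and 5 of 6 stood above all controls. The log2 change was 2.46 ± 0.34, 5.52-fold, with an edgeR adjusted p of 2.05e-08, and 1.9 without animal 506R, still called. Lung Il6 at 400 ppm of 1,4-DCB was at 2.55, 3.87, 6.85, 3.02 and 12.4 CPM, against 1.68 to 4.47 CPM (median 2.71) at 0 ppm, with 2 of 5 above all controls. That change, 0.92 ± 0.36, was not called (edgeR adjusted p = 0.171), and it was 0.42 without animal 505.

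In heart Il6 was called with 1,4-DCB only, on low counts. At 400 ppm it was at 0.995, 0.858, 4.39, 0.549 and 3.42 CPM (counts of 8 to 93), against 0.0672 to 1.17 CPM (median 0.462, n = 10; counts of 1 to 21) at 0 ppm. Animals 503 and 505 stood above all controls and the other 3 overlapped them. The log2 change was 1.89 ± 0.59 (edgeR adjusted p = 0.0247), and it was no longer called without either of those animals. At 150 ppm it was at 2.35, 1.49, 0.961, 0.201 and 3.36 CPM, with 3 of 5 above all controls. That change was 1.61 ± 0.59 (edgeR adjusted p = 0.0358), in a comparison where 15.3% of probes were called higher, and it was lost in 7 of 15 fits that left out 1 library. At 250 ppm of 1,2-DCB, heart Il6 ran from 0.118 to 2.25 CPM (median 1.23), against 0.339 to 2.09 CPM (median 0.868) at 0 ppm, a log2 change of 0.48 ± 0.57 (edgeR adjusted p = 0.680). Whether the isomers differ there was not tested, since the concentrations differ.

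In liver at 400 ppm of 1,4-DCB, Il6 was at 0.0667, 0.131, 0.171, 0.0307 and 0.148 CPM, from counts of 1 to 4, against 0.0326 to 1.10 CPM (median 0.579, n = 7; counts of 1 to 24) at 0 ppm. The groups overlapped through 1 control, animal 4, at 1 count. Il6 fell by 2.29 ± 0.77 on the log2 scale (edgeR adjusted p = 0.0176), where 13.6% of liver probes were called lower, and the call was lost without exposed animal 504. Without animal 505 the change was -2.44, still called. Macrophage markers stood apart in the same livers, with a sum of 247 to 301 CPM at 400 ppm, against 436 to 577 CPM at 0 ppm, and 2 of 7 probes fell, C1qa by 0.95 and Lyz2 by 0.92 on the log2 scale. Of 5 lymphocyte probes 2 fell, Ptprc by 0.75 and Cd3d by 1.03, and their sums overlapped, at 11.5 to 15.6 CPM at 400 ppm and 13.99 to 25.5 CPM at 0 ppm. Neutrophil markers summed to 336 to 737 CPM at 400 ppm, against 108.15 to 377 CPM at 0 ppm. Of 3 neutrophil probes 1 rose, S100a8 by 4.80, and 0 fell, where 18% of all probes were called higher. The median change of the 3 was -0.21. The part of these markers in the Il6 values was not tested. At 250 ppm of 1,2-DCB, liver Il6 ran from 0.139 to 0.579 CPM, against 0.141 to 0.655 CPM at 0 ppm, a log2 change of -0.05 ± 0.64.

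Ovary Il6 ran from 0 to 2.18 CPM (median 1.61, n = 7; counts of 0 to 12) at 250 ppm of 1,2-DCB, against 0.513 to 17.1 CPM (median 2.76, n = 10) at 0 ppm. All but 1 of the exposed animals lay within the control range. The log2 change was -1.66 ± 0.67 and missed the threshold (edgeR adjusted p = 0.0773), while DESeq2 gave -1.67 with an adjusted p of 0.0460. At 400 ppm of 1,4-DCB, ovary Il6 was at 7.87, 0.547, 0.703, 0.478 and 0.962 CPM, against 0.180 to 3.96 CPM (median 1.91). Its log2 change of 0.18 ± 0.68 turned to -1.47 without animal 501. Kidney Il6 was at 0.427 CPM or less at 250 ppm of 1,2-DCB and at 0.764 CPM or less at 0 ppm, on counts of 0 to 10, and no difference was detectable at this depth. In the 1,4-DCB kidneys Il6 was at 0.399, 0.0736, 0.0877, 0.975 and 1.67 CPM at 400 ppm, against 0 to 8.15 CPM (median 0.138, n = 6) at 0 ppm, a log2 change of -1.11 ± 1.03. The highest of each group were again animal 505 and control animal 2, and the change was -1.87 without the first and 2.53 without the second, neither called. At 250 ppm the kidney change was 0.13, and 2.07 without 1,2-DCB control animal 2.

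**Figure D2:**
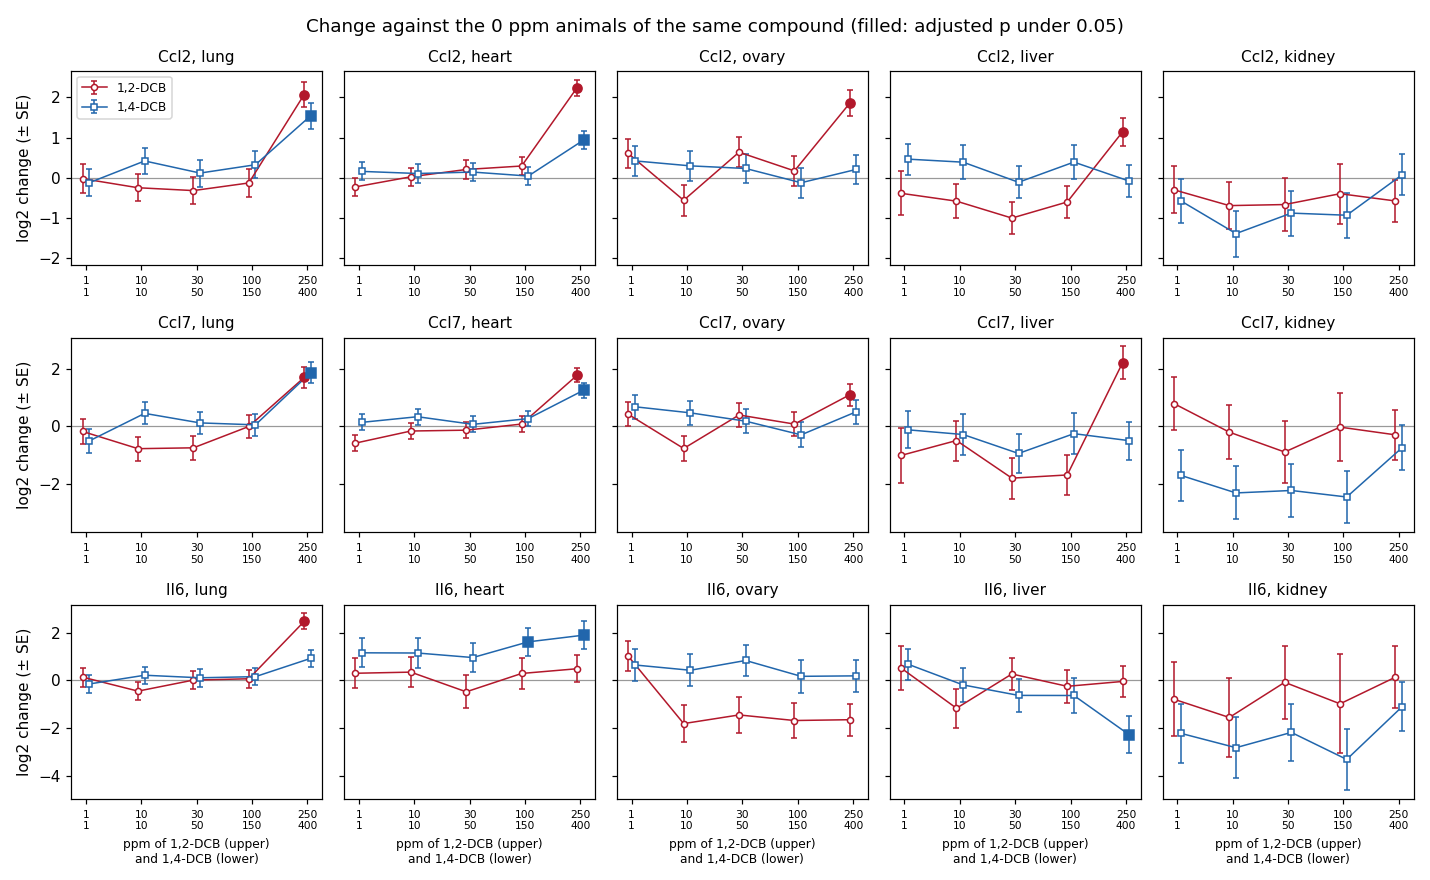
Log2 change of each gene against the 0 ppm animals of the same compound (± SE) along the concentrations, by tissue, with both compounds' concentrations on the axis. Filled symbols passed an adjusted p under 0.05. Of the chemokine changes, the 12 that passed were all at the highest concentration.

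Below the highest concentrations, 1 of 120 member changes was called, the heart Il6 at 150 ppm of 1,4-DCB described above. A further reading at an unadjusted p under 0.05 held 13, with 12 of them lower. Over all probes, those under that limit ran from 54 of 2601 in liver at 1 ppm of 1,2-DCB to 957 of 2454 in heart at 150 ppm of 1,4-DCB. Nothing is read from the 13. In kidney, the changes along the lower 1,4-DCB concentrations were -1.39 to -0.57 for Ccl2, -2.47 to -1.71 for Ccl7 and -3.32 to -2.19 for Il6. Their control means included animal 2, which stood far above the other controls. The background at these concentrations was uneven. At 1, 10, 30 and 100 ppm of 1,2-DCB, 0%, 5.34%, 11.7% and 18.8% of probes were called in liver, and 0%, 0.44%, 0.696% and 0.0366% in kidney. The matching shares were 0%, 1.89%, 4.57% and 6.53% in lung, 0%, 0.978%, 2.04% and 0.733% in heart, and 0%, 0.0737%, 0% and 0.0737% in ovary. At 1, 10, 50 and 150 ppm of 1,4-DCB they were 0%, 0%, 0.769% and 5.96% in liver, 0.476%, 0%, 0% and 0% in kidney, 0%, 0.0726%, 1.2% and 0.472% in lung, and 0%, 0%, 0% and 0.0369% in ovary. In heart the first 3 were at 0%, and at 150 ppm 668 of 2454 probes were called, 375 higher and 293 lower.

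In liver the chemokine means were below the control mean at 1 to 100 ppm of 1,2-DCB. Liver Ccl2 averaged 9.25, 7.06, 6.18, 4.60, 6.08 and 20.4 CPM at 0, 1, 10, 30, 100 and 250 ppm. Liver Ccl7 averaged 1.32, 0.656, 0.951, 0.370, 0.408 and 6.29 CPM along the same series. At 30 ppm, 3 of 5 animals lay below all 9 controls for each gene. The log2 changes at 30 ppm, -1.01 ± 0.40 for Ccl2 (edgeR adjusted p = 0.0906) and -1.81 ± 0.72 for Ccl7 (edgeR adjusted p = 0.0909), were not called, nor was that of Ccl7 at 100 ppm (-1.70 ± 0.71, edgeR adjusted p = 0.0869).

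In lung and heart no chemokine change was called at a lower concentration. Heart Ccl2 averaged 38.2 ± 13.1 CPM (SD) at 0 ppm, 32.7, 38.8, 44.1 and 46.8 CPM at 1, 10, 30 and 100 ppm of 1,2-DCB, and 180.4 ± 112.7 CPM at 250 ppm. Along 1,4-DCB it averaged 31.7, 35.3, 34.03, 34.9, 32.6 and 60.6 CPM at 0, 1, 10, 50, 150 and 400 ppm. Lung Il6 averaged 2.77 ± 1.12 CPM (SD) at 0 ppm and 2.99, 2.03, 2.78, 2.88 and 15.3 CPM along 1,2-DCB. In both 1,2-DCB series the means at the lower concentrations lay within 1 SD of the control mean.

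The isomers differ in the positions of the chlorine atoms on the benzene ring, next to each other in 1,2-DCB and opposite each other in 1,4-DCB. They were compared at 1 and 10 ppm, the concentrations both series share, as the change with 1,2-DCB minus the change with 1,4-DCB. None of the 30 differences was called (edgeR, adjusted over all probes), 3 had an unadjusted p under 0.05, and DESeq2 called none. At 1 ppm no probe was called in any tissue. At 10 ppm the shares called were 0.363% in lung, 1.14% in heart, 0% in ovary, 1.58% in liver and 0.22% in kidney.

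Those 3 were Ccl7 in lung, -1.23 (95% interval -2.36 to -0.10), Ccl7 in ovary, -1.25 (-2.48 to -0.01), and Il6 in ovary, -2.24 (-4.26 to -0.21), all at 10 ppm and log2. In the same comparisons, 194 of 2756 lung probes and 234 of 2713 ovary probes had an unadjusted p under 0.05, so nothing is read from the 3. For Ccl2 at 10 ppm the difference was -0.08 in heart (-0.73 to 0.56), -0.67 in lung (-1.62 to 0.29), -0.86 in ovary (-1.92 to 0.21), -0.97 in liver (-2.15 to 0.21) and 0.70 in kidney (-0.93 to 2.32). All these intervals except that of heart reach past a 2-fold difference, so like responses at 10 ppm were not shown. At the higher concentrations the exposures do not match and the values stand side by side above.

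The 0 ppm animals of the 2 series were compared in the same fit. Heart Ccl7 was higher in the controls of 1,2-DCB, at 25.3 ± 17.95 CPM, than in those of 1,4-DCB, at 14.4 ± 3.38 CPM (SD, n = 10 each), by 0.82 ± 0.23 (log2, edgeR adjusted p = 0.0436). That was 1 of 15 such comparisons called, in a tissue where 1.87% of probes were, and 5 of 15 had an unadjusted p under 0.05. Over all probes, those under that limit were 398 of 2454 in heart, 443 of 2729 in kidney and 325 of 2601 in liver. In lung they were 311 of 2756 and in ovary 631 of 2713. The heart Ccl7 call was lost without animal 4 and without 10 of the other 19 controls. In liver 0.577% of probes differed between the controls, in kidney 0.879%, in lung 0.363% and in ovary 6.16%. Each exposed group above is set against its own controls.

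Changes at the highest concentration were then compared between tissues, each against liver, in fits of 2 tissues together. With 250 ppm of 1,2-DCB, the change of Ccl2 in heart exceeded that in liver by 1.2 ± 0.39 (log2, edgeR adjusted p = 0.0125) and that of Il6 in lung exceeded it by 2.74 ± 0.67 (edgeR adjusted p = 4.91e-04). Kidney changes were smaller than those of liver, by -1.72 ± 0.62 for Ccl2 (edgeR adjusted p = 0.0247) and -2.53 ± 1.01 for Ccl7 (edgeR adjusted p = 0.0460). The Ccl2 difference of lung missed the threshold (1.13 ± 0.48, edgeR adjusted p = 0.0516), and no ovary difference was called. For 1,2-DCB, 38.6% of probes differed between lung and liver, 32.4% between heart and liver, 31.8% between kidney and liver and 33.2% between ovary and liver.

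With 400 ppm of 1,4-DCB, the lung change exceeded the liver change by 1.82 ± 0.53 for Ccl2, 2.56 ± 0.73 for Ccl7 and 3.41 ± 0.77 for Il6 (edgeR adjusted p = 0.00604, 0.00503 and 3.48e-04). Heart exceeded liver by 1.78 ± 0.63 for Ccl7 and 4.23 ± 0.99 for Il6 (edgeR adjusted p = 0.0276 and 5.43e-04). The shares of probes that differed from liver were 24.6% for lung, 23% for heart, 15.5% for kidney and 15.5% for ovary. The liver term of Il6 rests on 1 to 4 counts. Without the lung library of animal 505, the lung changes were 0.95 for Ccl2, 0.85 for Ccl7 and 0.42 for Il6, none called. The heart Il6 change lost its call without animal 503 or animal 505. The tissue differences were not refitted without these animals. With the animal as a replicate block, since tissues came from the same animals, 8 of these 9 differences were called and the kidney difference of Ccl2 was not (-1.60, edgeR adjusted p = 0.141).

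The animals did not keep 1 rank across their tissues. At 250 ppm of 1,2-DCB, animal 506R had the highest Ccl2 of its group in lung (264.5 CPM), heart (390.1 CPM) and kidney (13.97 CPM), but the lowest in liver (1.86 CPM). Animal 501 led in ovary (324 CPM), and animals 507 and 508, among the 3 high livers, had the lowest ovary Ccl2 (40.3 and 35.4 CPM). Animal 503, the remaining high liver, ranked 3 of 7 in ovary (180 CPM). Some ranks did agree, as animal 504 was lowest in both heart and lung (81.7 and 18.8 CPM). At 400 ppm of 1,4-DCB, animal 505 led in lung and kidney (118.5 and 85.1 CPM) and was lowest in liver (4.19 CPM). In lung at 250 ppm, 1 of 5 neutrophil probes rose, Lcn2 by 0.99, and 0 fell, where 17.6% of all probes were called higher. The median change of the 5 was -0.62. At 400 ppm of 1,4-DCB, 0 of 5 were called, with a median of 0.15. Animal 506R also had the highest neutrophil marker sum of its lung group, 7412 CPM, against 1847 to 5057 CPM in the other 5. At 0 ppm that sum was 10166 CPM in 1,2-DCB control animal 4 and 1326 to 3169 CPM in the other controls. Animal 505 had the highest of its group, 3085 CPM, against 1990 to 2603 CPM in the rest and 1516 to 2331 CPM at 0 ppm. Their part in the chemokine values was not tested.

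**Figure D3:**
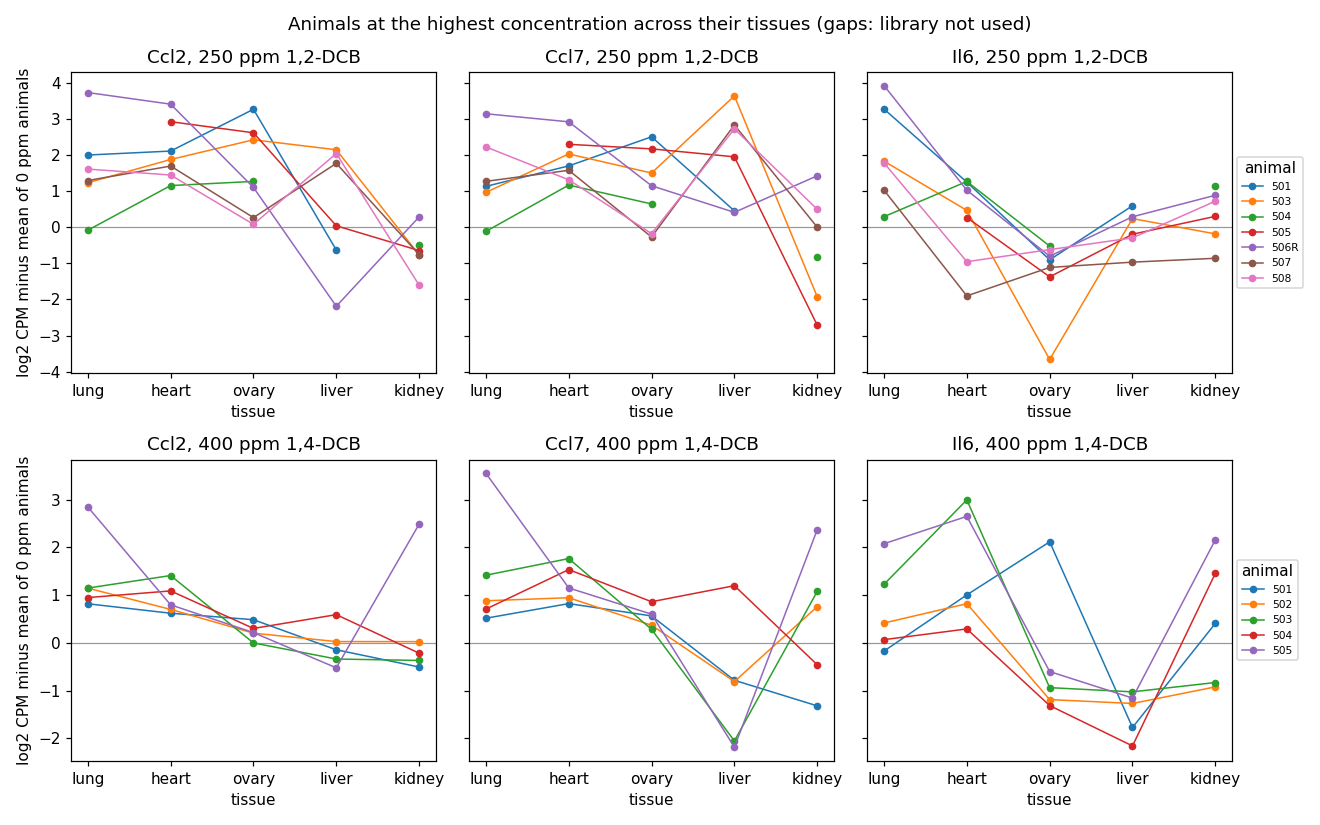
Log2 CPM of each animal at the highest concentration minus the mean of the 0 ppm animals of that tissue and compound, across tissues, with a line per animal. Animal 506R was at the top of lung and heart and the bottom of liver for Ccl2.

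Over libraries, Ccl2 and Ccl7 moved together most closely where they were abundant. Pearson's r of log2 CPM was 0.936 in heart (72 libraries), 0.885 in ovary (72), 0.880 in lung (70), 0.684 in kidney (51) and 0.595 in liver (61). With group means taken out, r was 0.835, 0.876, 0.827, 0.638 and 0.476 in the same order. Il6 tracked Ccl2 in lung (r = 0.765, and 0.601 with group means taken out) and kidney (0.572 and 0.534), but hardly in heart (0.146), ovary (0.112) or liver (0.0699). The genes share each library's depth, and low counts blur Il6 in heart, liver and kidney, so these are descriptions.

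The genes most like each member in each tissue were taken as the 3 with the highest r, with the members themselves left out. Ccl12, whose gene lies beyond that of Ccl11 on the same chromosome, was nearest to Ccl7 in lung (r = 0.829) and heart (0.810). It was among the 3 nearest in ovary (0.671). With group means taken out, these were 0.752, 0.732 and 0.800. Ccl12 was also nearest to Ccl2 in lung (0.795) and second in heart (0.765), behind Tubb6, a tubulin, at 0.783. With group means taken out, Ccl12 was at 0.635 in lung and 0.650 in heart, and Tubb6 in heart at 0.408. In liver, Ccl2 was nearest to Tyrobp, an adaptor of myeloid receptors (0.789), and Ccl7 to the monocyte markers Ly6c2 (0.709) and Ccr2 (0.690). With group means taken out, these were 0.776, 0.559 and 0.475. In ovary, Ccl7 was nearest to Lcp1, a leukocyte actin-binding protein (0.728), and Ccl2 to Gp49a (0.760). With group means taken out, these were 0.686 and 0.659, and Ccl12 stood closer to ovary Ccl7 than Lcp1 did. Lung Il6 was nearest to Lcn2, a siderophore-binding protein of neutrophils and epithelia (0.759, and 0.587 with group means taken out). The 3 nearest to liver Il6 reached only 0.443.

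**Figure D4:**
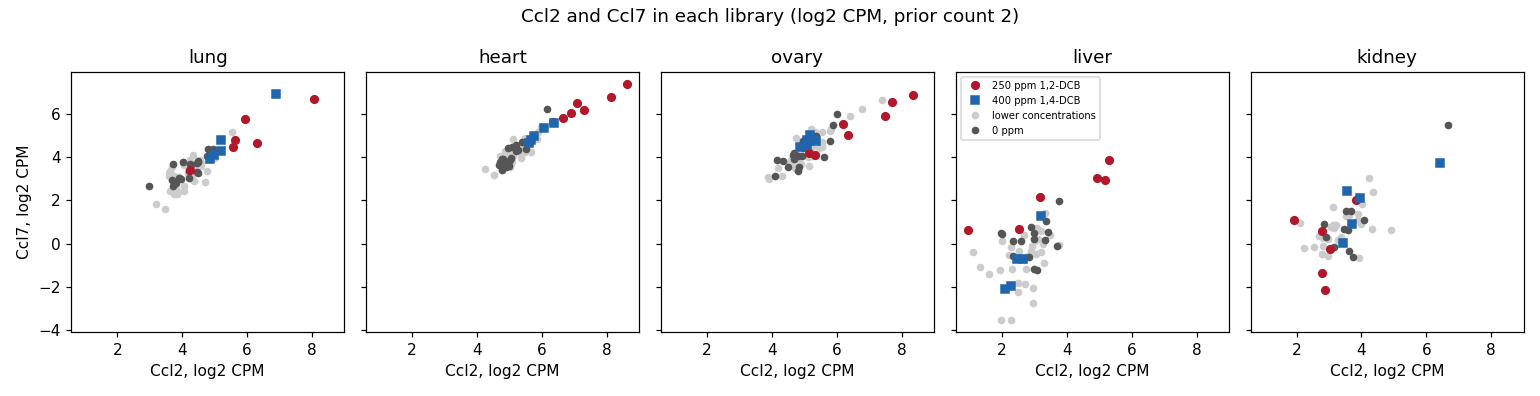
Ccl2 (x axis) against Ccl7 (y axis) in each used library, both as log2 CPM with a prior count of 2, by tissue. In heart the 250 ppm animals of 1,2-DCB sit at the top right, while in kidney 1 control and 1 exposed animal of 1,4-DCB stand alone at the top right.

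Other CC chemokines were read from a list of 18 genes, of which 10 were on the panel. Ccl12 rose in lung, by 1.53 at 250 ppm of 1,2-DCB and 1.36 at 400 ppm of 1,4-DCB, and in heart, by 1.19 and 1.29 (log2, edgeR adjusted p between 1.35e-05 and 0.0252). Ccl11, whose gene lies between those of Ccl7 and Ccl12, was not called in lung, at -0.54 and 0.38 in the same comparisons. In liver at 250 ppm, where 25.1% of all probes were called higher and 24.6% lower, 4 of 7 tested probes rose and 1 fell, with Ccl3 up by 3.20 and Ccl4 up by 2.60, both macrophage inflammatory proteins. The median change was 0.52, beside -0.02 over all probes. In ovary at 250 ppm, 2 of 6 rose, again Ccl4 (1.08) and Ccl3 (0.97), where 8.22% of all probes were called higher. Of the CXC and other chemokines, 3 of 5 tested in heart rose at 400 ppm, Pf4 (0.83), Cxcl1 (0.81) and Cxcl5 (1.14), where 8.84% of all probes were called higher, and 0 of 6 were called in lung at either highest concentration.

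The receptor Ccr2, a marker of inflammatory monocytes, rose in liver at 250 ppm of 1,2-DCB by 2.10 ± 0.33 and 1.98 ± 0.33 in its 2 probes (log2, edgeR adjusted p = 3.30e-07 and 8.40e-07). In lung its 3 probes ran from -0.44 to -0.10 at 250 ppm and were not called, and in ovary from -0.15 to 0.13. Among chemokine receptors in lung, 4 of 10 probes fell at 250 ppm, those of Cxcr4, Cxcr6, Ccr7 and Ccr6, by 0.62 to 0.81 on the log2 scale, where 15% of all probes were called lower. The macrophage marker Cd68 rose in lung by 0.37, in heart by 0.34 and in ovary by 0.97 at 250 ppm (edgeR adjusted p = 0.0157, 0.0388 and 4.63e-05). Over the whole macrophage list, 2 of 8 probes rose in lung, 2 of 8 in ovary and 1 of 7 in heart. Over all probes the shares called higher were 17.6%, 8.22% and 4.07% in the same order. Median changes of the list were -0.05, 0.12 and -0.18. No probe of the list fell in lung or ovary, and in heart Csf1r, the receptor that macrophages need for survival, fell by 1.63 ± 0.50 (log2, edgeR adjusted p = 0.0266), where 4.81% of all probes were called lower. Summed macrophage markers in heart overlapped, with 857 to 1475 CPM at 250 ppm and 927 to 2734 CPM at 0 ppm. The 2734 CPM was in control animal 4, and the other controls ran from 927 to 1238 CPM. In lung, the mesothelial and epithelial keratin Krt19 rose by 0.69, while 2 of 5 lymphocyte and 3 of 5 endothelial probes fell, beside 15% of all probes. In ovary, 2 of 4 fibroblast and 2 of 4 endothelial probes fell, beside 7.7% of all probes. Their part in the chemokine values was not tested.

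Genes of IL-6 signalling and the acute phase were read from fixed lists, with 8 of 18 and 13 of 21 genes on the panel. In lung at 250 ppm, where Il6 rose, 0 of 8 rose and 2 fell, the transcription factors Cebpb by 0.65 and Cebpd by 1.12 on the log2 scale. Of acute phase genes tested in lung, 2 of 10 rose, Lcn2 (0.99) and the protease inhibitor Serpina3n (0.72). Over all lung probes 17.6% were called higher and 15% lower, so the 2 of 10 is near the background. In liver, 8 of 14 acute phase probes fell at 250 ppm of 1,2-DCB and 2 rose, and 7 of 14 fell at 400 ppm of 1,4-DCB, with medians of -0.60 and -0.44, beside -0.02 and -0.03 over all probes, of which 24.6% and 13.6% were called lower. Fibrinogen genes were among them, with Fgg down by 1.15 at 250 ppm and by 0.58 at 400 ppm.

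Of the genes of NF-kB and its feedback, 19 of 21 were on the panel. In lung at 250 ppm, 9 of 21 probes fell and 2 rose, beside 15% of all probes called lower and 17.6% higher, with Nfkbia down by 0.36 and Vcam1 down by 0.55 on the log2 scale. In heart at 400 ppm, 4 of 19 rose and 0 fell, beside 8.84% and 4.12% of all probes, among them Vcam1 (1.10), Icam1 (0.51) and Ptgs2 (2.01). Of immediate early genes, Fosl1, an AP-1 subunit, rose at 250 ppm in lung (1.32) and heart (1.78), and in liver, with 0 to 98 counts at 250 ppm, above 0 in 4 of 6 animals, against 0 counts in all 9 controls (edgeR adjusted p = 3.56e-05). Of 13 immediate early probes tested in each tissue at 250 ppm, 4 rose and 1 fell in liver, 1 rose and 3 fell in lung, 1 rose and 1 fell in heart, and 0 rose and 2 fell in ovary. Over all probes, the shares called higher and lower were 25.1% and 24.6% in liver and 17.6% and 15% in lung. In heart they were 4.07% and 4.81%, and in ovary 8.22% and 7.7%. Jun, another AP-1 subunit, fell in lung by 0.49, in heart by 0.63 and in ovary by 0.59 on the log2 scale. Of the IL-6 family and pro-inflammatory cytokines, 8 of 16 on the panel, Il1b fell in liver at both highest concentrations, by 1.89 and 1.48 on the log2 scale, and Tnf rose in ovary at 250 ppm by 1.14.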

How the data were processed

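RNA from ovary, kidney, left liver lobe, heart and lung was measured with the Mouse S1500+ TempO-Seq panel. The authors deposited attenuation-adjusted read counts per probe, as whole numbers, and the submitters' processing notes name Bowtie 1.3.1. The genome build and probe manifest behind the counts are not given in the sources used here. Attenuation lowers the reads of abundant targets by a probe-specific factor, and the factor seen in the files was 1 for the members' probes.

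The members, gene lists and tests were chosen with earlier results of these data known. The 326 libraries labelled as used were analysed by tissue in R 4.3.3 with edgeR 4.0.16 (limma 3.58.1): TMM scaling, filterByExpr over the groups of a tissue, a quasi-likelihood fit of group means over both compounds and Benjamini-Hochberg adjustment over all probes, at 0.05. CPM used effective library sizes, and log2 CPM a prior count of 2. Contrasts of 1 compound in 1 tissue share their 0 ppm animals. The labels number each animal across its tissues, so the animal pairs the samples of different tissues. The fits were tested on simulated data.

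Alternatives were DESeq2 1.42.0, RLE scaling, no filter, all libraries, 1 compound at a time, the attenuation factor divided out, leaving out each library, and the animal as a block. Named were all probes of the members, the 3 other genes of highest r in each tissue, and up to 6 genes of a list by smallest p in each contrast. Library totals limit the precision, and each value gives counts where they are low.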

Additional observations from a re-analysis of the deposited data

Results flagged for a closer look

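In 17 of 171 groups of 4 to 10 animals, 1 animal lay further on the log2 CPM scale from the others than Dixon's 95% limit allows, and chance alone gives about 1 in 20 such groups. Among the 1,4-DCB kidneys, control animal 2 was high for all 3 genes, with 102 CPM of Ccl2, 44.1 CPM of Ccl7 and 8.15 CPM of Il6. Animal 505 at 400 ppm was high for Ccl2 in kidney (85.1 CPM) and lung (118.5 CPM), and animal 401 at 150 ppm was low for Ccl2 in kidney (10.2 CPM). In heart, Ccl7 was high in 1,2-DCB control animal 4 (74.8 CPM) and in animal 302 at 30 ppm (36.04 CPM), Ccl2 in 1,4-DCB animal 303 at 50 ppm (50.0 CPM), and Il6 in 1,2-DCB animal 304 at 30 ppm (2.00 CPM). In lung, Ccl7 was high in 1,4-DCB animal 205 at 10 ppm (35.2 CPM) and Il6 low in animal 405 at 150 ppm (1.54 CPM). In ovary, Ccl2 was high in 1,2-DCB animal 302 at 30 ppm (167 CPM) and in 1,4-DCB animal 102 at 1 ppm (55.7 CPM). Ovary Il6 was high in 1,4-DCB animal 102 at 1 ppm (8.44 CPM) and animal 501 at 400 ppm (7.87 CPM), and at 0 CPM in 1,2-DCB animal 503 at 250 ppm.

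The change at the highest concentration differed between a tissue and liver in 9 of 24 tests of the difference itself. At 250 ppm of 1,2-DCB the log2 differences were 1.2 for Ccl2 in heart, -1.72 for Ccl2 and -2.53 for Ccl7 in kidney, and 2.74 for Il6 in lung. At 400 ppm of 1,4-DCB they were 1.82 for Ccl2, 2.56 for Ccl7 and 3.41 for Il6 in lung, and 1.78 for Ccl7 and 4.23 for Il6 in heart. Those at 400 ppm were not refitted without animal 505, whose lung library was high, and liver Il6 there had 1 to 4 counts.

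Of the 34 libraries labelled as not used, 2 from exposed animals held a member at 10 or more counts and above every used 0 ppm library of its tissue and compound. The lung library of 1,2-DCB animal 505 at 250 ppm, set aside for its alignment rate, had Ccl2 at 35.5 CPM on 19 counts. The liver library of 1,4-DCB animal 403 at 150 ppm, set aside as an outlier, had Ccl7 at 6.43 CPM on 75 counts. Both are by plain library total.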

How the results depend on the processing

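Under alternatives other than leaving out 1 library, called changes kept their direction throughout and lost the call 5 times. Dividing out the attenuation factor moved 18 of 30 recomputed 0 ppm levels by over 1 SD and changed no call. With only 1 compound in the fit, Ccl7 in ovary at 250 ppm was 1.11 (edgeR adjusted p = 0.109). Without the filter, the control difference of Ccl7 in heart was 0.813 (edgeR adjusted p = 0.0535), which left 0 control differences called. DESeq2 called the Il6 change in ovary at 250 ppm (-1.67, adjusted p = 0.0460). With the animal as a replicate block, the kidney minus liver difference of Ccl2 was -1.60 (edgeR adjusted p = 0.141), and no other call changed. With the 3 animals that stand apart left out, chosen after seeing the data, Ccl7 in lung at 400 ppm was 0.85 (edgeR adjusted p = 0.226) and Il6 in heart 1.63 (edgeR adjusted p = 0.0849). That also turned uncalled changes at 400 ppm, to 0.0137 for liver Ccl2, 1.78 for kidney Il6 and 1.08 for kidney Ccl7, and at 250 ppm to -0.00714 for kidney Il6. The cause was not tested in any of these.

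Leaving out 1 library at a time ended calls of 7 changes. The log2 ranges were 0.952 to 1.69 for Ccl2 and 0.850 to 2.09 for Ccl7 in lung at 400 ppm, 0.795 to 1.38 for Ccl7 in ovary at 250 ppm, 1.39 to 2.13 for Il6 in heart at 400 ppm and 1.19 to 1.89 at 150 ppm, -2.51 to -2.02 for Il6 in liver at 400 ppm, and 0.468 to 0.895 for the control difference of Ccl7 in heart. Uncalled changes that turned direction ran from -1.05 to 1.32 for Ccl2, -1.51 to 1.84 for Ccl7 and -1.87 to 2.53 for Il6 in kidney at 400 ppm, and from -0.218 to 2.07 for kidney Il6 at 250 ppm. In liver they ran from -0.299 to 0.0198 for Ccl2 at 400 ppm and from -0.236 to 0.112 for Il6 at 250 ppm, and in ovary from -1.47 to 0.442 for Il6 at 400 ppm. Low counts of Il6 in kidney, liver and heart limit what these libraries can show.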
